A study of Mus musculus with 4 samples.

Results

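The solute carriers are membrane proteins that move amino acids, sugars, nucleotides, metals, ions and other small solutes across the plasma membrane and the membranes of organelles, and their genes are named Slc with a family number. Plasma membrane carriers supply a T cell with amino acids, glucose and lactate exchange, while mitochondrial and Golgi families move metabolites between compartments. In T cells, carriers such as the amino acid exchanger Slc7a5 and the glucose transporter Slc2a1 are known for rising on activation, when cells start to grow. The genes described here are those whose only symbol in the array's annotation starts with Slc and a digit and whose brightest probe set had a mean of 6 or more over the 4 arrays on the log2 scale. Of 361 such genes measured, 138 met that level, out of 22180 genes with a single symbol. The 138 fall in 39 families, and 4 of them (Slc7a6os, Slc9a3r1, Slc4a1ap and Slc2a4rg-ps) are named after a carrier without being one.

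The genes were measured in invariant natural killer T (iNKT) cells, T cells with a semi-invariant receptor for lipids shown by CD1d, on 2 arrays from CD4-Vα14Tg mice and 2 from wild-type (WT) mice. CD4-Vα14Tg mice carry a transgene for the Vα14 T cell receptor α chain whose expression is driven by the CD4 promoter. WT controls carry none. Organ, sorting gate, age, sex, strain and any pooling of animals are not stated in the labels, and the labels do not say whether arrays of one genotype came from separate animals, so p-values measure only the spread between these arrays.

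The genes were chosen by their mean level over the 4 arrays, so their presence above 6 is a description and not a result. The difference between genotypes took no part in the choice. Just inside the level lay Slc10a4 at a mean of 6.01, Slc29a2 at 6.01 and Slc26a6 at 6.02. Just outside lay Slc35e4 at 5.96, Slc25a33 at 5.94 and Slc39a3 at 5.92. In 131 of the 138, both genotypes had a mean of 6 or more, while 5 reached the level only through CD4-Vα14Tg and 2 only through WT. None of these 7 passed the test between genotypes. All 138 lay above the filter on dim genes, and the filter left 95 of the other 223 solute carrier genes in the test.

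The labelled cell type showed in its genes: 11 of 13 T cell and iNKT identity genes were measured and their mean level ran from 9.93 to 10.06 on CD4-Vα14Tg arrays and from 10.27 to 10.38 on WT arrays. In that list Il2rb, Klrb1c and Tbx21, genes of the interferon-producing NKT1 subset, were lower in CD4-Vα14Tg cells. Marker lists of other cell types had mean levels between 4.09 and 5.41 on every array. They covered macrophages and dendritic cells (3 genes tested of 13 measured), neutrophils (2 of 8), B cells (3 of 7) and hepatocytes (3 of 7). CD8 T cells or double-positive thymocytes (2 of 5) and erythroid cells (1 of 2, from 8 listed) were covered too. None of the tested genes passed, and the rest lay below the filter on dim genes and were not tested. Of the B cell list, Ighm read 10.07 to 10.31, while Cd79a, Pax5, Blnk and Ms4a1 lay below the filter on dim genes. The other B cell genes went opposite ways in CD4-Vα14Tg cells. Cd22 had a log2 difference of -0.64 (limma adjusted p = 0.0785) and Cd79b of 0.48 (limma adjusted p = 0.124). In such bulk RNA, fewer cells of a type and less RNA per cell cannot be told apart. The part of the NKT1 genes' shift in the differences given here was not tested.

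Expression of most solute carriers differed little between the genotypes, as did that of most genes tested. By limma with Benjamini-Hochberg adjustment over all 13602 genes tested, 2 of the 138 were lower in CD4-Vα14Tg cells and 0 were higher. Those 2 are Slc16a10, a carrier of aromatic amino acids, and Slc22a15, a carrier of organic cations and zwitterions. Over all genes tested, 1.34% were called lower, 0.61% higher and 1.95% in either direction, against 1.45% of the solute carriers, so the share called was near the background. At an unadjusted limma p under 0.05, 10 solute carriers were lower and 5 higher, together 10.9%, where the background was 7.04% lower and 4.62% higher. The median log2 difference (CD4-Vα14Tg minus WT) was -0.04, as it was over all 8552 tested genes with a mean of 6 or more, and -0.02 over all genes tested. Limited to the 131 genes at the level in both genotypes, the counts were 2 lower and 0 higher with a median of -0.04. Of the 95 dimmer solute carriers that were tested, 0 passed limma's test, while 4 had an unadjusted p under 0.05.

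Intervals were narrow for most of the family, but they cover only the spread between these arrays. Differences near background are also understated. The 95% interval of the difference lay within 2-fold either way for 135 of the 138 and within 1.5-fold for 102, without adjustment for their number. Slc16a10, Slc17a5 and Slc37a2 were those whose interval reached past 2-fold. The difference was smaller than 0.2 on the log2 scale in 95 of the 138 and larger than 0.5 in 8. Of all 13602 genes tested, 9943 differed by less than 0.2 and 771 by more than 0.5. Their interval lay within 2-fold in 13072 and within 1.5-fold in 10744, so such bounds were not particular to solute carriers. The arrays of the genotypes did not overlap in 51 of the 138 (37%), 38 lower and 13 higher in CD4-Vα14Tg cells, near the background of 39.1% of all genes tested (23.4% lower and 15.7% higher). On these arrays 84 of the 138 had a negative difference, or 60.9%, while 56% of all genes tested and 60.1% of those with a mean of 6 or more did.

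**Figure D1:**
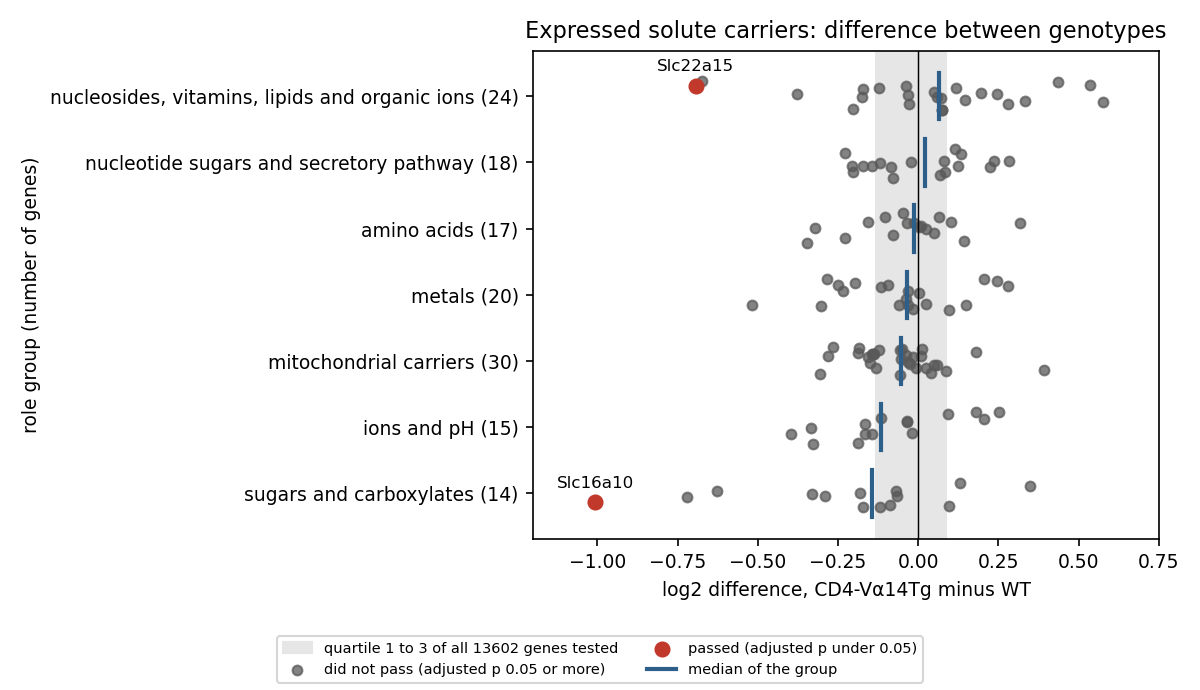
Each point is 1 of the 138 solute carrier genes, placed by its log2 difference (CD4-Vα14Tg minus WT, horizontal axis) in its role group (vertical axis, height within a group has no meaning), with red for the 2 that passed limma's test, a blue bar at each group's median and a grey band from the lower to the upper quartile of all genes tested. The group medians run from -0.15 for sugars and carboxylates to 0.07 for nucleosides, vitamins, lipids and organic ions, and Slc16a10 and Slc22a15 lie at -1.01 and -0.69.

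Slc16a10 belongs by sequence to the monocarboxylate transporter family but moves tryptophan, tyrosine, phenylalanine and thyroid hormones. Its log2 expression was 7.45 and 7.60 on the CD4-Vα14Tg arrays and 8.54 and 8.53 on the WT arrays. Both transgenic arrays lay well below both WT arrays, which were nearly equal. The fall was 2.01-fold, from 8.53 ± 0.01 to 7.52 ± 0.10 (SD, n = 2 arrays each), with a 95% interval from -1.29 to -0.72 on the log2 scale (limma adjusted p = 0.00926).

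Slc22a15, of the organic ion carrier family, read 6.84 and 6.99 in CD4-Vα14Tg cells and 7.55 and 7.67 in WT cells. The groups did not overlap, and the nearest arrays of the 2 genotypes were further apart than the arrays within either. The difference was -0.69, a 1.62-fold fall whose interval was -0.99 to -0.40 (limma adjusted p = 0.0438). This call was close to the threshold and was lost without any 1 of the 4 arrays (limma adjusted p from 0.0929 to 0.196) and with no filter on dim genes (0.0565). Slc16a10 passed in each of these fits.

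The DNA just before the start of these 2 genes is shown because they are the solute carriers that passed the test. It is from RefSeq (build GRCm38.p6), which held a promoter for 108 of the 138. Each run is 250 bases on the minus strand, written 5′ to 3′ and ending at the base before the annotated start. Capitals mark matches to CCAAT or GGGCGG on either strand, which are the letters of the CCAAT and GC boxes, common promoter elements.
Slc16a10, chr10:40142255-40142504: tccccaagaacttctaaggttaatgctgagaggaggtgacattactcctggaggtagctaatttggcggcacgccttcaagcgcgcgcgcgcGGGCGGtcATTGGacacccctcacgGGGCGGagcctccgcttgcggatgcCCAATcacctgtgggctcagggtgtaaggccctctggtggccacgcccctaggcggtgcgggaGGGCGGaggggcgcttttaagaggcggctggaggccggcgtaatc
Slc22a15, chr3:101924454-101924703: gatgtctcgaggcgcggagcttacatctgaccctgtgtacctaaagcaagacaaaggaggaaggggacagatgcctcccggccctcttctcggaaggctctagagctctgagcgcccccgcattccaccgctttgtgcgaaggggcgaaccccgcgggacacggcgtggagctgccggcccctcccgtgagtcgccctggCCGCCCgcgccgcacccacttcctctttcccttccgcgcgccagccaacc

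The Slc16a10 window held 2 CCAAT matches, at 108 to 104 and 150 to 146 bases before the start, and 3 GC box matches. The Slc22a15 window held 1 GC box match, 50 to 45 bases before the start. Among 32851 RefSeq windows of this length, 33.8% hold at least 1 CCAAT and 32.7% at least 1 GGGCGG on either strand. Of the 108 solute carriers with a promoter, 35.2% and 63% do in their first listed window. The 32851 windows were not limited to expressed genes or to 1 per gene, so these shares are not like for like. The share over expressed genes was not counted. How many windows hold more than 1 match was not counted. Also searched on both strands were TATAAA (in 12.4% of windows), the E-box CACGTG (6.02%), the T-box sequence GGTGTGA (3.33%), the RUNX sequence TGTGGT (14%) and TGATGCAA, the core of an amino acid response element (0.791%). None of these letters is in either window. The motifs were chosen after the sequences were seen.

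The families of sugar and carboxylate carriers had the lowest median of the role groups, -0.15 over 14 genes. The 1 gene called there was Slc16a10, which is grouped by its family and not by its amino acid substrates, and the other 13, which include the non-carrier Slc2a4rg-ps, did not pass. The arrays of the genotypes did not overlap in 9 of the 14, 8 lower and 1 higher, where 23.4% of all genes tested were apart and lower and 15.7% apart and higher. Slc16a6, a monocarboxylate family member linked to ketone body and taurine transport, read 7.59 and 7.66 against 8.21 and 8.29 in WT. Its difference of -0.63 just missed the threshold (limma adjusted p = 0.0503), and it passed under a stricter filter (0.0342), with trend and robust options (0.0374) and with probe sets averaged (0.0480). Slc16a6 has 1 probe set, so averaging left its difference at -0.63. It did not pass with no filter (limma adjusted p = 0.0652), with quantile normalization (0.0513) or with each array centred on its median. Nor did it pass with any 1 array left out, where the difference ran from -0.67 to -0.58.

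Slc37a2, a sugar phosphate exchanger of the endoplasmic reticulum, had 5.90 and 5.62 in CD4-Vα14Tg cells against 6.24 and 6.72 in WT. All CD4-Vα14Tg values were below the level of 6 and below both WT values, but the arrays within a genotype were up to 0.48 apart (difference -0.72, limma adjusted p = 0.139). Slc37a2 is known from macrophages, whose marker list had mean levels of 4.70 to 4.71 on CD4-Vα14Tg arrays and 4.70 to 4.76 on WT arrays. Of the macrophage and dendritic cell markers, 10 of the 13 measured lay below the filter on dim genes. Above that filter lay Cd68, Marco and C1qa. Cd68, a lysosomal marker of macrophages, was 6.71 and 6.89 against 7.04 and 7.19 in WT (limma adjusted p = 0.401, unadjusted p = 0.0435). Marco went the other way, by 0.23 (limma adjusted p = 0.649), as did C1qa, by 0.15 (0.801). What these 3 markers contribute to the lower reading of Slc37a2 was not tested.

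The glucose transporters showed smaller differences. Slc2a3, a high-affinity glucose transporter, was 7.46 and 7.41 against 7.77 and 7.68, apart on all arrays but by -0.29 only (limma adjusted p = 0.386). Slc2a1, the main glucose transporter of activated T cells, was 9.39 and 8.94 against 9.39 and 9.28, so that the arrays within CD4-Vα14Tg differed by more than the genotypes (difference -0.17, interval -0.57 to 0.22). A dimmer probe set of Slc2a1 had a difference of 0.15, and with both averaged it was -0.01. The urate carrier gene Slc2a9 went the other way, with 6.76 and 6.67 against 6.45 and 6.28 (difference 0.35, limma adjusted p = 0.306). Slc16a1, the lactate and pyruvate carrier, had a difference of -0.12 with an interval from -0.42 to 0.18. Its relative for lactate export, Slc16a3, lay below the level of 6, with values from 5.47 to 5.79.

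**Figure D2:**
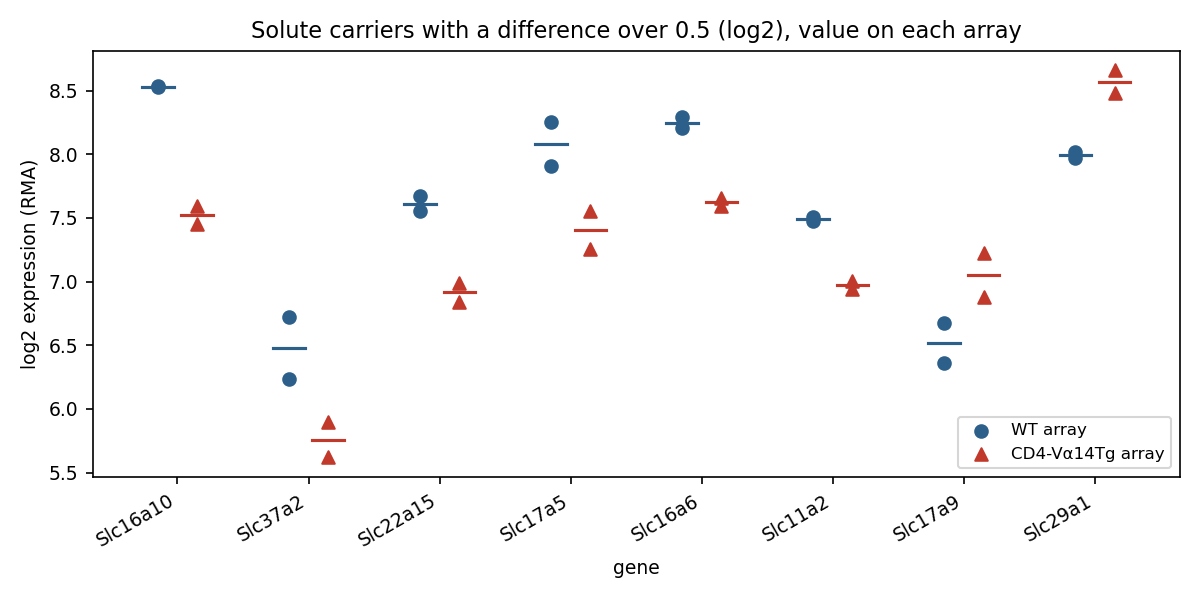
Log2 expression (vertical axis) on each array for the 8 solute carriers with a difference over 0.5 on the log2 scale, with circles for WT arrays, triangles for CD4-Vα14Tg arrays and a line at each mean of 2. The arrays of the genotypes do not overlap in any of the 8, and 6 are lower and 2, Slc17a9 and Slc29a1, are higher in CD4-Vα14Tg cells. The 8 were picked by their difference on these same arrays, so the lack of overlap adds no support to it. Levels of different genes are not comparable, since each has its own probe set.

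Of the 17 genes in the amino acid families, 0 passed in either direction, the median difference was -0.01 and the largest size was 0.35. This grouping by family number leaves out Slc16a10, which moves aromatic amino acids and fell by 1.01 on the log2 scale, and takes in Slc7a6os and Slc43a3, which are not amino acid carriers. Slc7a5 forms the large neutral amino acid exchanger LAT1 together with Slc3a2, the CD98 heavy chain. Slc7a5 was 9.74 and 9.27 in CD4-Vα14Tg cells and 9.68 and 9.36 in WT cells, a difference of -0.01 with an interval from -0.46 to 0.43. Slc3a2 was 10.61 and 10.30 against 10.75 and 10.47, a difference of -0.16 with an interval from -0.53 to 0.22. In both genes, values within a genotype were further apart than the genotype means.

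Slc1a5, the neutral amino acid exchanger ASCT2 used for glutamine, had a difference of -0.10 on its brightest probe set (limma adjusted p = 0.870) and -0.35 on a dimmer one. Slc38a1, a sodium-coupled neutral amino acid carrier, was 10.82 and 10.76 against 10.79 and 10.75, which left an interval from -0.25 to 0.29. Slc38a2, a system A carrier that cells induce when short of amino acids, was 11.32 and 10.60 against 11.10 and 10.91. Its CD4-Vα14Tg arrays lay on either side of both WT arrays, and its interval of -0.58 to 0.49 was among the wider ones. The taurine carrier Slc6a6 and the cationic and neutral amino acid exchanger Slc7a6 had differences of 0.05 and -0.04.

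Slc43a2 and Slc43a3, which belong to 1 family, pointed in opposite directions. Slc43a2, a sodium-independent carrier of large amino acids, was 7.04 and 7.23 against 7.61 and 7.35 (difference -0.35, limma adjusted p = 0.394). Slc43a3, known as a purine base carrier, was 7.89 and 7.79 against 7.38 and 7.67 (difference 0.32, limma adjusted p = 0.449). Neither passed. Slc38a7, a lysosomal amino acid exporter, had -0.23, and Slc7a6os, a neighbour of Slc7a6 and not a carrier, had -0.32. Slc43a1 and the cystine carrier Slc7a11 lay below the filter on dim genes, with 4.26 to 4.58 and 2.87 to 3.16 on the arrays.

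**Figure D3:**
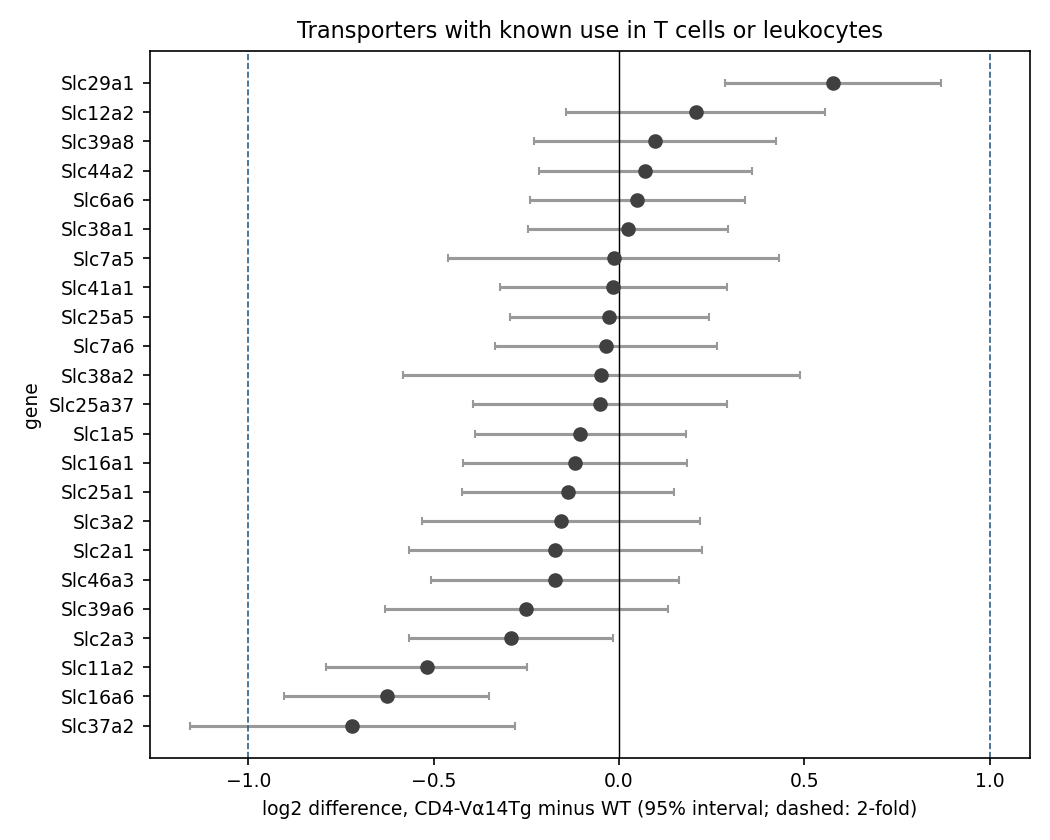
Log2 difference (CD4-Vα14Tg minus WT, horizontal axis) with its 95% interval for the 23 solute carriers at the level of 6 that were listed for a known use in T cells or leukocytes, 1 gene per row, with dashed lines at 2-fold. None of the 23 passed limma's test, and of them the interval of Slc37a2 alone crosses a dashed line.

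Nucleoside, vitamin, lipid and organic ion carriers had a positive median, 0.07 over 24 genes, with 1 lower (Slc22a15), 0 higher and 23 that did not pass. This group also takes in the Slc15 peptide and histidine, Slc10 bile salt and Slc14 urea families. The difference was positive in 3 of 3 Slc15 genes and 2 of 2 Slc10 genes, and negative in the Slc14 gene. Slc29a1, the equilibrative nucleoside transporter ENT1, was 8.66 and 8.48 in CD4-Vα14Tg cells and 8.02 and 7.97 in WT cells. It had the largest positive difference of the 138, 0.58 with an interval from 0.28 to 0.87, and both transgenic arrays were above both WT arrays (limma adjusted p = 0.0787). A dim second probe set of Slc29a1, at 3.54 to 3.64, showed a difference of 0.004. Slc28a2, a concentrative purine nucleoside carrier (chosen after its values were seen), was 7.08 and 7.49 against 7.57 and 7.75, a difference of -0.38 (limma adjusted p = 0.444).

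Slc17a5, or sialin, exports sialic acid from lysosomes. It was 7.26 and 7.56 against 7.91 and 8.25, a difference of -0.67 whose interval was -1.06 to -0.28 (limma adjusted p = 0.121). Slc17a9, of the same family, loads ATP into vesicles. It was 6.88 and 7.23 against 6.36 and 6.67, a difference of 0.54 whose interval was 0.14 to 0.93 (limma adjusted p = 0.234). In neither gene did the genotypes overlap, and in both genes and both genotypes array 2 was above array 1, by 0.30 to 0.35. The choline-like carrier Slc44a2 and the lysosomal carrier Slc46a3 had differences of 0.07 and -0.17.

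Among 20 metal carriers, 0 passed and the median was -0.03. Slc11a2, the ferrous iron importer DMT1, was 6.941 and 7.002 in CD4-Vα14Tg cells against 7.474 and 7.506 in WT cells. The arrays of the genotypes did not overlap and differed by -0.52 with a 95% interval of -0.79 to -0.25, but the test was not passed (limma adjusted p = 0.0879). Its macrophage relative Slc11a1 lay below the level of 6 at 4.72 to 4.91, and the iron exporter Slc40a1 lay below the filter at 3.55 to 4.17. The mitochondrial iron importer Slc25a37 had a difference of -0.05 with an interval from -0.39 to 0.29.

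Zinc importers of the Slc39 family had a negative difference in 8 of 10 genes, with a median of -0.15. Of all tested genes with a mean of 6 or more, 60.1% had a negative difference. None of the 10 had an unadjusted limma p under 0.05. Slc39a4 was 6.90 and 6.90 against 7.27 and 7.10 (difference -0.29, limma adjusted p = 0.433), and Slc39a6, known in T cell activation, had -0.25 with an interval from -0.63 to 0.13. Slc39a11 had 0.20 and Slc39a8, a zinc importer induced in activated T cells, had 0.10. The Slc30 family, which takes zinc out of the cytosol, had a positive difference in 3 of 4 genes, the largest being 0.28 for the Golgi carrier Slc30a7 (limma adjusted p = 0.557). Slc41a1, a magnesium carrier, differed by -0.02.

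Ion and pH carriers had a median of -0.11 over 15 genes with 0 that passed, and their arrays were apart and lower in 8 (Slc9a3r1 included) and apart and higher in 1, against 23.4% and 15.7% of all genes tested. Slc26a11, an anion carrier, was 6.01 and 6.21 against 6.43 and 6.58 (difference -0.40, limma adjusted p = 0.262). Slc9a3r1 encodes the scaffold protein NHERF1 and not a carrier. It was 8.95 and 8.76 against 9.17 and 9.21 (difference -0.33, limma adjusted p = 0.335). The sulphate carrier Slc26a2 had -0.33, while the chloride cotransporters Slc12a7 and Slc12a2 had 0.25 and 0.21, none past the test.

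The mitochondrial carrier family, Slc25, makes up 30 of the genes, grouped by family number and not by the organelle of each carrier. None of the 30 passed the test, 0 had an unadjusted limma p under 0.05, and the median was -0.05. The difference was under 0.2 in 26 of the 30, and in 9943 of all 13602 genes tested. Slc25a5, an adenine nucleotide translocase, was 11.88 and 11.84 against 11.90 and 11.87, with an interval from -0.30 to 0.24. The citrate carrier Slc25a1 had -0.14. Both aspartate and glutamate carriers, Slc25a12 and Slc25a13, were lower on each CD4-Vα14Tg array than on each WT array, by -0.28 and -0.26 (limma adjusted p = 0.596 and 0.455). Slc25a36, a pyrimidine nucleotide carrier, had -0.31 and the ATP and phosphate exchanger Slc25a23 had 0.39, where the WT arrays of Slc25a23 were 0.51 apart.

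Nucleotide sugar and secretory pathway carriers had a median of 0.02 over 18 genes, with 0 that passed and 0 with an unadjusted p under 0.05. Slc35b2, which brings the sulphate donor PAPS into the Golgi, was 7.32 and 7.26 against 7.48 and 7.55 (difference -0.23, limma adjusted p = 0.550). Slc35e1 and Slc35c2 had -0.21 and -0.20, and Slc33a1, the acetyl-CoA carrier of the endoplasmic reticulum, had 0.28 with an interval from -0.14 to 0.70.

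For 100 of the 138 genes, the larger of the gaps between arrays of 1 genotype exceeded the difference between genotype means. The larger of 2 gaps between single arrays is a wider measure than a difference between means. In 28 genes both genotypes had a gap over 0.2 in the same direction by replicate number: the first array was higher in 7 and the second in 21. Neither count was made over all genes tested, so neither is shown to be particular to solute carriers. Slc7a5 and Slc3a2 were among the 7. Of other genes, chosen after their values were seen, Slc36a4, an amino acid carrier, was 11.13 and 10.55 in CD4-Vα14Tg cells and 11.14 and 10.69 in WT cells. Slc25a25, an ATP and phosphate exchanger of mitochondria, was 7.14 and 6.36 against 6.93 and 6.56. The reverse order held for the zinc importer Slc39a10, at 6.79 and 7.60 against 7.31 and 7.68, and for Slc35a5, at 6.58 and 7.37 against 6.96 and 7.23. The differences between genotypes were -0.08, 0.01, -0.30 and -0.12 in these 4 genes, none past limma's test.

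**Figure D4:**
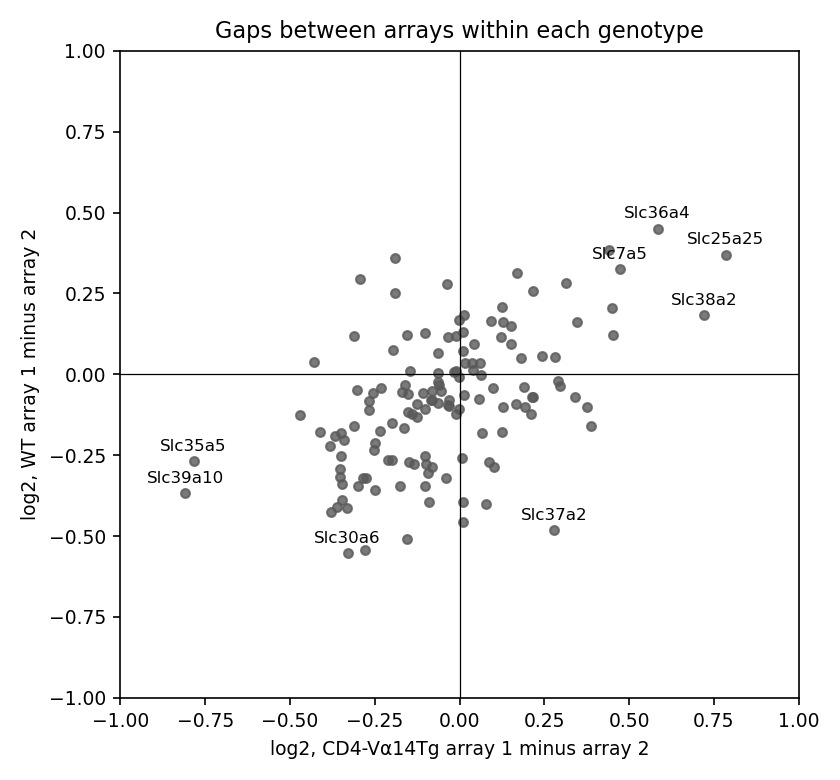
For each of the 138 genes, the log2 gap between the CD4-Vα14Tg arrays (replicate 1 minus 2, horizontal axis) is set against the gap between the WT arrays (replicate 1 minus 2, vertical axis), with 8 genes labelled. Slc36a4, Slc25a25 and Slc7a5 lie to the upper right and Slc39a10, Slc35a5 and Slc30a6 to the lower left, while Slc37a2 has gaps of opposite sign.

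Among transporters and partner proteins that carry no Slc symbol, 1 of 51 tested genes rose and 0 fell, with a median of 0.01. The share called was 1.96%, near the 1.95% of all genes tested that were called in either direction. Other shares were above the background. At an unadjusted limma p under 0.05, 5 were lower and 5 higher, together 19.6%, against 7.04% lower and 4.62% higher of all genes tested. The arrays of the genotypes did not overlap in 32 of the 51 (62.7%), against 39.1% of all genes tested. The gene called was Emb, which encodes embigin, an escort protein of monocarboxylate transporters at the cell surface. Emb was 10.20 and 9.72 in CD4-Vα14Tg cells and 9.02 and 9.04 in WT cells, a rise of 0.93 (limma adjusted p = 0.0464), and the call was lost without any 1 array except CD4-Vα14Tg replicate 2. With all its probe sets averaged, the difference was 0.46 (limma adjusted p = 0.159). Bsg, or basigin, the escort of Slc16a1, had -0.08. The potassium channel gene Kcnn4, the water and glycerol channel gene Aqp3 and the sodium pump subunit gene Atp1b3 had 0.70, -0.58 and 0.51, with limma adjusted p from 0.0645 to 0.118.

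Of 57 tested genes of nutrient sensing and the amino acid response, 0 rose and 0 fell, and the median was -0.07. At an unadjusted limma p under 0.05, 7 of the 57 (12.3%) were lower and 0 higher, against 7.04% lower and 4.62% higher of all genes tested. The metallothionein gene Mt1, which responds to zinc, was 6.87 and 6.52 against 7.56 and 7.43 (difference -0.80, limma adjusted p = 0.0517). Sesn2, a leucine sensor of the mTORC1 pathway, was 5.03 and 5.04 against 5.65 and 6.06 (difference -0.82, limma adjusted p = 0.0536). Cebpb and Eif4ebp1 had -0.56 and -0.48. Atf4, the transcription factor of the amino acid response, had -0.40 (limma adjusted p = 0.255), and Myc had -0.44 (limma adjusted p = 0.441). Neither was among the 4 genes of this list with the largest moderated t in size. Response genes differed in sign, with Chac1 and Trib3 at 0.20 and 0.17 and Ddit3 and Asns at -0.175 and -0.14. Of the 57, 34 (59.6%) had a negative difference and 23 a positive one, against 56% negative over all genes tested.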

How the data were processed

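Each of the 4 arrays has 1 deposited value per probe set on the log2 scale (41345 probe sets, array medians 5.04 to 5.07). Per the submitters' processing notes, the authors made these values with RMA and Affymetrix Power Tools, so arrays were quantile normalized and a shift in total RNA cannot be seen. Array number, not depth, limits precision, and differences near background are understated. Tool versions and a build were not given in the sources used here. A gene took its brightest probe set with a single symbol (platform annotation), and was tested when at or above the 40th percentile of named probe sets on 2 of 4 arrays: 13602 genes. The test was limma 3.58.1 in R 4.3.3 (lmFit, eBayes, two-sided, Benjamini-Hochberg, threshold 0.05), tested on simulated data. Each ± is an SD of 2 arrays. Across 23521 probe sets, r was 0.993 and 0.994 within genotypes and 0.987 to 0.989 between.

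The genes, lists and role groups, which follow family numbers, were chosen with earlier results of these data known. Named were genes past the threshold, up to 4 per role group by moderated t, and listed T cell and leukocyte transporters. Alternatives covered the filter, normalization, limma options, probe sets, the replicate number as a block, leaving out each array, and a level of 5 or 7.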

Additional observations from a re-analysis of the deposited data

How the results depend on the processing

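The count of solute carriers lower in CD4-Vα14Tg cells was 2 as reported and 1 with no filter on dim genes, and it was also 1 when any 1 array was left out, with Slc16a10 as that gene each time. The count higher stayed at 0 in these fits. The labels give both genotypes replicate numbers 1 and 2 but do not say that a number marks a shared batch. Across the 138 genes, gaps between arrays 1 and 2 correlated between the genotypes at r = 0.523 (0.262 over all genes tested). This is a description across genes and with 2 pairs it does not settle whether the samples were paired. With the replicate number as a block, 5 were lower and 2 higher (674 genes in all against 265): Slc16a6, Slc17a5, Slc11a2, Slc17a9 and Slc29a1 joined Slc16a10 and Slc22a15. With members at a mean of 5 or more (203 genes) or 7 or more (84), and under renormalization, limma options or averaged probe sets, the counts stayed within 1.5 times of 2 and 0. The median difference ran from -0.06 to -0.005 over the alternatives and from -0.05 to -0.01 with 1 array left out. Of 47 named solute carriers, 11 changed sign somewhere, none of them called in any fit. With quantile normalization Slc25a5, Slc38a2, Slc41a1, Slc7a5 and Slc7a6 stood at 0.0174, 0.0088, 0.0224, 0.0304 and 0.0125. With 1 array left out, the range was -0.1765 to 0.0755 for Slc25a37, -0.0055 to 0.0535 for Slc38a1, -0.0520 to 0.245 for Slc39a8, -0.1305 to 0.1005 for Slc41a1, -0.397 to 0.0540 for Slc2a1, -0.4085 to 0.3135 for Slc38a2, -0.0100 to 0.152 for Slc44a2, -0.0160 to 0.115 for Slc6a6, -0.251 to 0.222 for Slc7a5 and -0.132 to 0.0620 for Slc7a6. The cause of these changes was not tested. Where 1 array was left in a genotype, it was assumed to vary like the other genotype.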
